A study of Mus musculus with 43 samples.

Results

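The genes described here encode the channel-forming proteins that glial cells are best known for. They are the connexin genes Gja1 (Cx43), Gjb6 (Cx30), Gjb2 (Cx26), Gjb1 (Cx32) and Gjc3 (Cx29), and the pannexin genes Panx1 and Panx2. The 7 genes were chosen by name, and their rows were read in all 43 libraries of the series, out of 55416 genes counted. The series compared glia from Rag2-/- mice, which lack mature T and B lymphocytes, with glia from littermate controls, to ask whether lymphocyte deficiency changes glial gene expression. Each library held RNA of 1 cell type immunopanned from the cerebral cortex of 1 mouse at 3 months of age. Astrocytes were harvested with anti-HepaCAM, oligodendrocytes with the GalC hybridoma, oligodendrocyte precursor cells (OPCs) with anti-PDGFRα and microglia with anti-CD45.

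The Rag2 allele (Rag2 tm1.1Cgn) is a germline null allele, crossed with C57BL/6J mice. There were 6 control and 6 Rag2-/- libraries of astrocytes, 6 and 6 of microglia, 4 and 4 of oligodendrocytes, and 6 and 5 of OPCs. The control mice were Rag2 +/- in 4 of the 6 littermate pairs and Rag2 +/+ in the other two, and both were used as controls. The anti-CD45 antibody used for microglia also binds other leukocytes. Both sexes were used, and the mice of a pair were of the same sex in 5 of the 6 pairs. Every library of a cell type was sequenced on the same lane, so a difference between cell types and one between lanes cannot be told apart.

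Connexins assemble into hemichannels in the plasma membrane, and hemichannels of adjacent cells dock to form gap junctions that pass ions and small metabolites. In the brain, astrocytes are coupled to each other mainly through Cx43 and Cx30 and to oligodendrocytes through pairs of unlike connexins, with Cx32 among those on the oligodendrocyte side. Cx29 is found in oligodendrocytes and their myelin and is not known to form ordinary gap junctions. Pannexins share the membrane topology of connexins but act mostly as single-membrane channels, and Pannexin 1 is a route of ATP release.

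The libraries held 6499417 to 23118497 counts on genes (median 10447042). Levels are given as CPM, the count of a gene divided by the library total and scaled up to a common total, corrected by edgeR's trimmed mean of M-values (TMM), here called normalized CPM. Mitochondrially encoded genes took 45.8% to 60.1% of the counts in oligodendrocytes, 22.4% to 36.7% in OPCs, 22.5% to 45.1% in astrocytes and 6.75% to 11.7% in microglia, so the scaling bears on every comparison between cell types. The median of all genes lay at -0.14 for astrocytes minus OPCs, at -0.24 for oligodendrocytes minus OPCs and at 0.18 for OPCs minus microglia on the log2 scale. With DESeq2's size factors in place of TMM, the first of these was -0.04. The fixed marker genes of each cell type were highest in the libraries of that type for all 8 astrocyte, 8 oligodendrocyte, 7 OPC and 8 microglia markers. The markers were chosen with earlier results of these data known, so they are not an independent check of the labels. Rag2 itself was at 0 counts in all 21 Rag2-/- libraries and above 0 in 3 of 22 control libraries, with 4 counts at most, so it does not check the labels in these cells. These are bulk libraries, in which fewer cells of a type and less RNA per cell cannot be told apart.

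The 200 bases before the transcription start are shown for the 5 connexin genes. By mean normalized CPM, Gja1, Gjb6 and Gjb2 were highest in astrocytes and Gjb1 and Gjc3 in oligodendrocytes. The Gjb2 excess over OPCs did not pass its test, and the Gjc3 order of oligodendrocytes and OPCs depended on the scaling. The sequences are from RefSeq (GRCm38.p6), 5′ to 3′ on the strand of the gene, and for Gjb1 the most downstream of 4 annotated starts was used. Capitals mark matches on either strand to the motifs searched. The AP-1 motif was TGACTCA and the GC box GGGCGG. The core bound by SOX factors was searched as ACAAAG, here the first SOX core. Its second form was ACAATG and the TATA box was TATAAA.
Gja1, chr10:56377100-56377299, plus strand: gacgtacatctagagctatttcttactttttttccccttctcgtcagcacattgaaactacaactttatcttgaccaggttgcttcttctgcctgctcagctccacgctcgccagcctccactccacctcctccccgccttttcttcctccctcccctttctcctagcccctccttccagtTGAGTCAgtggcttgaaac
Gjb6, chr14:57133612-57133811, minus strand: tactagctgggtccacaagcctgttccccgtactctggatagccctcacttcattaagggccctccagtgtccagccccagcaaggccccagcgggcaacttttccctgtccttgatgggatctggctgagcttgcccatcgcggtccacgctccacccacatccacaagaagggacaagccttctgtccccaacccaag
Gjb2, chr14:57104703-57104902, minus strand: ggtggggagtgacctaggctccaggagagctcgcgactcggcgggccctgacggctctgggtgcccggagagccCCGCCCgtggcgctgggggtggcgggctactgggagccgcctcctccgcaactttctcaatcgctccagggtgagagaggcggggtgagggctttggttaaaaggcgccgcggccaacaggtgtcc
Gjb1, chrX:101383532-101383731, plus strand: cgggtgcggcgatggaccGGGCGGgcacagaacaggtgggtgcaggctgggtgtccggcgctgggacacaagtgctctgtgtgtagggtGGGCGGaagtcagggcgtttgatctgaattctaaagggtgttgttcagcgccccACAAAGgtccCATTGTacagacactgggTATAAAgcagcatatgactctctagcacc
Gjc3, chr5:137963099-137963298, minus strand: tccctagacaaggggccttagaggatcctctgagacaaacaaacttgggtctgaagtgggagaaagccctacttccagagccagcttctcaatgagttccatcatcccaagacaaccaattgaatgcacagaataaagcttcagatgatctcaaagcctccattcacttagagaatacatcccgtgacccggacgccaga

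These letters occur in many promoters. Among 32851 windows of the same length in the table, 3.66% held the AP-1 sequence, 31.0% the GC box, 13.3% and 8.58% the first and second SOX core and 9.96% the TATA box. The Gja1 window held AP-1 on the opposite strand, beginning at position -19 from the start. The Gjb1 window held a TATA box at -29, the first SOX core at -57, the second on the opposite strand at -47, and GC boxes at -111 and -182. The Gjb2 window held a GC box on the opposite strand at -126. The Gjb6 and Gjc3 windows held none of the letters searched, which says only that they are not in these windows.

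Gja1 was highest in astrocytes. It encodes Cx43, one of the main astrocytic connexins, and lies at chr10:56253241-56278609 on the plus strand of GRCm39. Its normalized CPM ran from 595 to 761 over the 12 astrocyte libraries (median 686), from 25.7 to 162 over the 11 OPC libraries (median 55.8), from 8.51 to 79.2 over the 8 oligodendrocyte libraries (median 19.9) and from 0.899 to 6.94 over the 12 microglia libraries (median 3.53). The astrocyte libraries lay above every other library, and OPC and oligodendrocyte libraries overlapped. In the 43-library fit (edgeR's quasi-likelihood test, Benjamini-Hochberg adjusted over all genes, here and for every contrast of cell types below), astrocytes exceeded OPCs 10.8-fold (log2 difference 3.43, SE 0.29, adjusted p = 3.72e-13). OPCs exceeded oligodendrocytes 2.02-fold (oligodendrocytes minus OPCs -1.01, SE 0.30, adjusted p = 0.00618), and this call was lost with the control libraries alone (-0.18, adjusted p = 0.791). Oligodendrocytes exceeded microglia 8.66-fold (adjusted p = 6.43e-12).

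Gjb6 followed the same order of cell types. It encodes Cx30, another astrocytic connexin, at chr14:57360757-57371087 on the minus strand. Its normalized CPM ran from 279 to 455 in astrocytes (median 327), from 23.4 to 110 in OPCs (median 37.0), from 2.68 to 38.6 in oligodendrocytes (median 9.73) and from 0.149 to 4.31 in microglia (median 1.63). Astrocytes stood apart from all other libraries, and each of the other types overlapped its neighbour in the order. Astrocytes exceeded OPCs 8.45-fold (log2 difference 3.08, SE 0.31, adjusted p = 4.08e-11). Oligodendrocytes minus OPCs gave -1.50 (SE 0.33, adjusted p = 0.000371), a call lost with the control libraries alone (-0.86, adjusted p = 0.122).

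Gjb2 was low everywhere. It encodes Cx26, and it lies 18516 bases from Gjb6 on the same strand (chr14:57335919-57342240). Its normalized CPM ran from 3.98 to 14.3 in astrocytes (median 9.97), from 1.01 to 10.4 in OPCs (median 3.13) and from 0.0784 to 2.45 in microglia (median 0.838). In oligodendrocytes the control libraries had 3, 0, 0 and 0 counts and the Rag2-/- libraries 1, 1, 0 and 37 counts, so a single Rag2-/- library (pair 6, 5.17 normalized CPM) carried most of them. Astrocyte and OPC libraries overlapped. The astrocyte excess over OPCs was 2.20-fold and did not pass (log2 difference 1.14, SE 0.50, adjusted p = 0.0644), although 16 of 49 alternative fits, DESeq2 among them (1.24, adjusted p = 0.0384), put it under 0.05. Astrocytes exceeded microglia 10.6-fold (adjusted p = 5.44e-07), and microglia and oligodendrocytes did not pass (oligodendrocytes minus microglia -1.28, SE 0.73, adjusted p = 0.119). With the control libraries alone that difference was -2.95 (adjusted p = 0.0117). Without the pair 6 Rag2-/- oligodendrocyte library it was -3.13 (adjusted p = 0.000545), and without the pair 1 control library it was -3.03 (adjusted p = 0.0231).

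Gjc3 had its highest levels in oligodendrocytes and OPCs. It encodes Cx29 and lies at chr5:137949252-137961723 on the minus strand. In oligodendrocytes the control libraries had 540, 513, 265 and 569 normalized CPM and the Rag2-/- libraries 528, 543, 561 and 422. The pair 5 control was the low one among them. Levels ran from 217 to 351 in OPCs (median 294), from 46.9 to 112 in astrocytes (median 82.7) and from 0.589 to 6.62 in microglia (median 2.06). OPC and astrocyte libraries did not overlap, and OPC and oligodendrocyte libraries overlapped only through that pair 5 control. Oligodendrocytes exceeded OPCs 1.70-fold (log2 difference 0.76, SE 0.23, adjusted p = 0.00829), but the direction depended on the scaling, since in CPM without TMM factors the OPC mean was 121% of the oligodendrocyte mean. The call was also lost with the control libraries alone (0.64, adjusted p = 0.139). OPCs exceeded astrocytes (astrocytes minus OPCs -1.85, SE 0.22, adjusted p = 2.44e-09). Of the 4389 bases of a Gjc3 transcript, 11.35% matched other places in the genome at 98% identity or more, the longest match being 141 bases, so its counts are uncertain to that extent.

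Gjb1 was highest in oligodendrocytes. It encodes Cx32, which is also the connexin of myelinating Schwann cells, and lies at chrX:100419984-100429547 on the plus strand. In oligodendrocytes the control libraries had 41.4, 65.9, 28.2 and 15.6 normalized CPM and the Rag2-/- libraries 32.4, 49.3, 31.7 and 33.8. The controls thus spanned a wider range than the Rag2-/- libraries, which lay inside it. Gjb1 ran from 1.80 to 16.7 in astrocytes (median 6.77) and from 1.39 to 8.98 in OPCs (median 3.96). Oligodendrocytes exceeded astrocytes (astrocytes minus oligodendrocytes -2.18, SE 0.39, adjusted p = 9.68e-06) and exceeded OPCs 8.29-fold (adjusted p = 7.88e-08). Astrocytes against OPCs sat at the threshold (1.84-fold, log2 difference 0.88, SE 0.37, adjusted p = 0.0496), and 34 of 49 alternatives kept the call. The 15 that lost it each left out 1 library, and the lowest difference among them, 0.69, came without the pair 2 Rag2-/- astrocyte library. In microglia 17 counts were found in 12 libraries, 8 of them in the pair 4 Rag2-/- library.

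Panx1 had another distribution from any of the connexins. It encodes the ATP-permeable Pannexin 1 channel and lies at chr9:14913424-14956813 on the minus strand. Its normalized CPM ran from 10.4 to 19.1 in OPCs (median 14.03), from 3.61 to 34.4 in oligodendrocytes (median 8.96), from 1.42 to 6.09 in microglia (median 5.09) and from 0 to 2.63 in astrocytes (median 0.414). The OPC libraries lay above every microglia and astrocyte library, while oligodendrocytes spread across the OPC range. The difference between OPCs and oligodendrocytes did not pass (oligodendrocytes minus OPCs -0.44, 95% interval -1.15 to 0.28, adjusted p = 0.34). OPCs exceeded microglia 3.16-fold (log2 difference 1.66, SE 0.32, adjusted p = 1.80e-05). Oligodendrocytes exceeded microglia 2.34-fold (adjusted p = 0.00216), a call lost with the control libraries alone (0.86, adjusted p = 0.145). Microglia exceeded astrocytes (astrocytes minus microglia -2.78, SE 0.36, adjusted p = 7.71e-09). In 6 of 12 astrocyte libraries Panx1 had more than 3 counts, with 21 at most.

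Panx2 was highest in oligodendrocytes. It encodes Pannexin 2, a channel best known from neurons, at chr15:88943920-88957770 on the plus strand. In oligodendrocytes the control libraries had 23.4, 39.9, 30.9 and 24.6 normalized CPM and the Rag2-/- libraries 23.5, 15.96, 20.1 and 18.7. It ran from 5.03 to 16.7 in OPCs (median 9.19), from 1.07 to 6.36 in astrocytes (median 3.37) and from 0.101 to 2.86 in microglia (median 1.61). All 6 pairs of cell types passed the test, among them oligodendrocytes over OPCs (2.47-fold, log2 difference 1.30, SE 0.30, adjusted p = 0.000512) and astrocytes over microglia (2.54-fold, adjusted p = 7.83e-05, lost with the control libraries alone at 0.63, adjusted p = 0.140). The OPC mean of Panx2 was 40.4% of the oligodendrocyte mean, but 80.9% in CPM without TMM factors. The size of the oligodendrocyte excess over OPCs thus depended on the scaling. Of its exonic bases, 11.27% overlap a gene on the other strand (1810021B22Rik), and the strand setting of the counting is not given, so the Panx2 counts are uncertain to that extent. The summed neuronal markers were 599 to 3093 normalized CPM in oligodendrocyte libraries and 310 to 644 in OPC libraries, and the correlation of Panx2 with them gave Pearson r = -0.09 and Spearman rho = 0.26 over 8 oligodendrocyte libraries (exact permutation p = 0.828 and 0.536) and r = 0.22 and rho = 0.15 over 11 OPC libraries (permutation p = 0.506 and 0.672).

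The members were counted against all genes in each of the 6 contrasts of cell types. Of 21368 genes tested, 49.7% were called between astrocytes and oligodendrocytes, 42.6% between astrocytes and OPCs, 70% between astrocytes and microglia, 40.7% between oligodendrocytes and OPCs, 68% between oligodendrocytes and microglia and 69.5% between OPCs and microglia. Of the 7 members, 7, 6, 7, 6, 6 and 7 were called in the same order. The members were chosen as known glial genes, so these counts describe them and support nothing further. All members but Panx1 and Gjb2 were lowest in microglia. In the alternative fits of these contrasts (other size factors, no filter, DESeq2, the mouse as a block, controls alone, each library left out) no member's direction reversed. The Gjc3 order of OPCs and oligodendrocytes in CPM without TMM factors, given above, was not part of a fit.

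**Figure D1:**
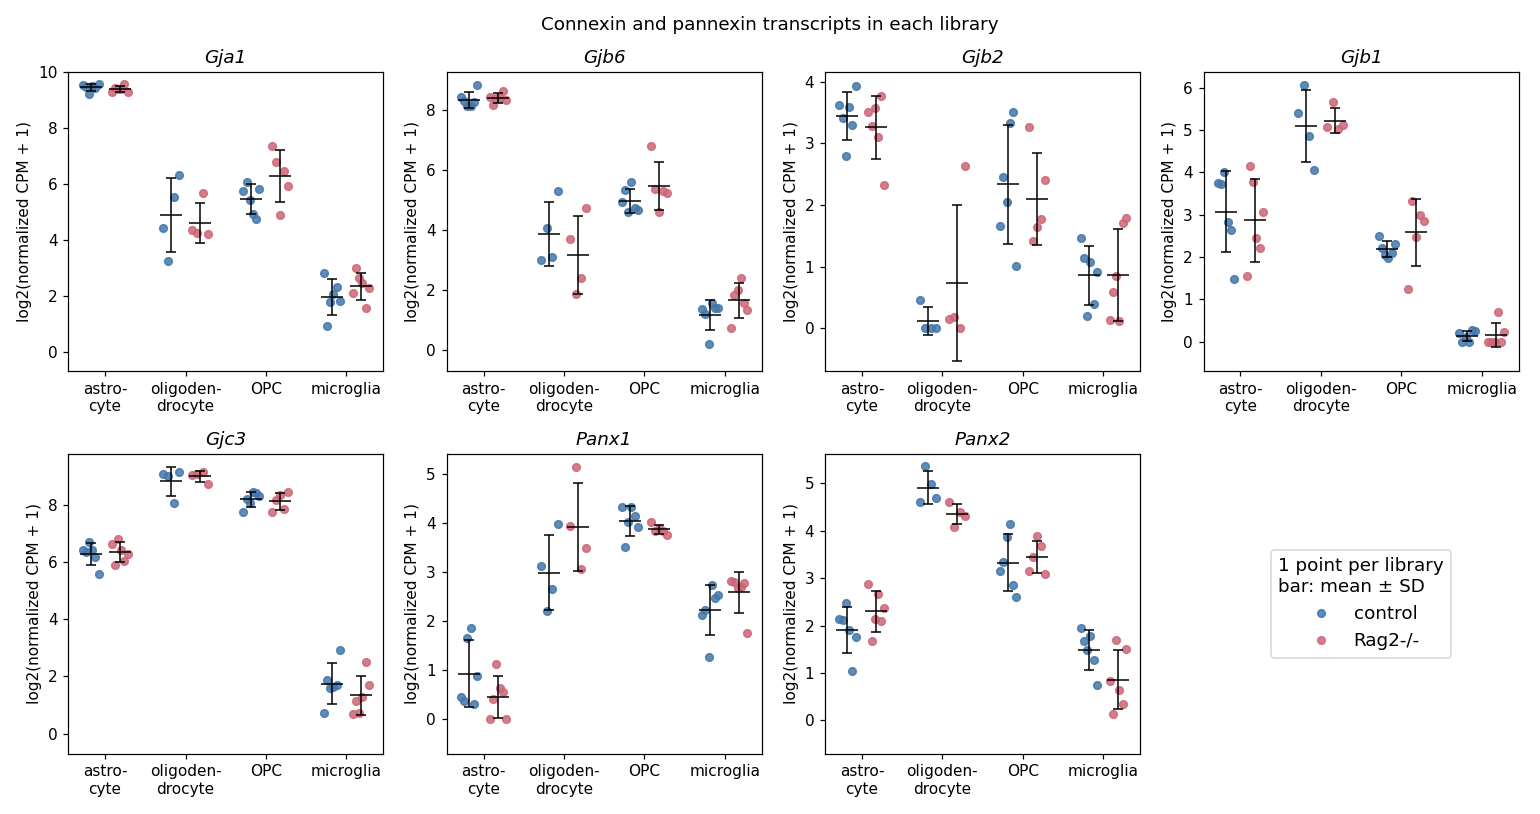
Each panel shows 1 gene, with the 4 cell types along the x axis and log2(normalized CPM + 1) on the y axis. Points are libraries (blue control, red Rag2-/-) and bars are the mean ± SD of a group. Gja1 and Gjb6 stand highest in the 12 astrocyte libraries, and Gjb1 and Panx2 have their highest means in oligodendrocytes. Gjc3 is high in oligodendrocytes and OPCs (an order that turns without TMM factors, with the pair 5 control oligodendrocyte library inside the OPC range). Panx1 is highest in OPCs and oligodendrocytes. Control and Rag2-/- points overlap in each panel, but for Panx2 in oligodendrocytes only between 23.39 and 23.47 normalized CPM.

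Levels of different genes were compared only per kb of exonic sequence (the union of annotated exons). In astrocytes Gjb6 stood at 84.8 ± 13.1 (SD, n = 12) and Gja1 at 55.9 ± 4.26 normalized CPM per kb, which were 52.4% and 34.5% of the sum over all 23 connexin and pannexin genes. The order of these genes rests on the length used, since the Gja1 union spans 12302 bases and its canonical transcript 4700. Per kb of the canonical transcript, a length chosen after the values were seen, Gjb6 was at 156 ± 24.1 and Gja1 at 146 ± 11.1, closer than their spread. In oligodendrocytes Gjc3 stood at 75.6 ± 15.8 (SD, n = 8), followed by Gjb1 at 11.7 ± 4.76 normalized CPM per kb. In OPCs Gjc3 led as well, at 44.7 ± 7.99 (SD, n = 11) and 65.1% of the sum, followed by Gjb6 at 10.2 ± 6.29. In microglia the 23 genes summed to 2.73 normalized CPM per kb. There Panx1 stood at 0.680 ± 0.228, above the other members per kb of exon union, but per kb of the canonical transcript Gjb6 (0.880) and Gja1 (0.796) were above it (0.792), all within their spread.

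**Figure D2:**
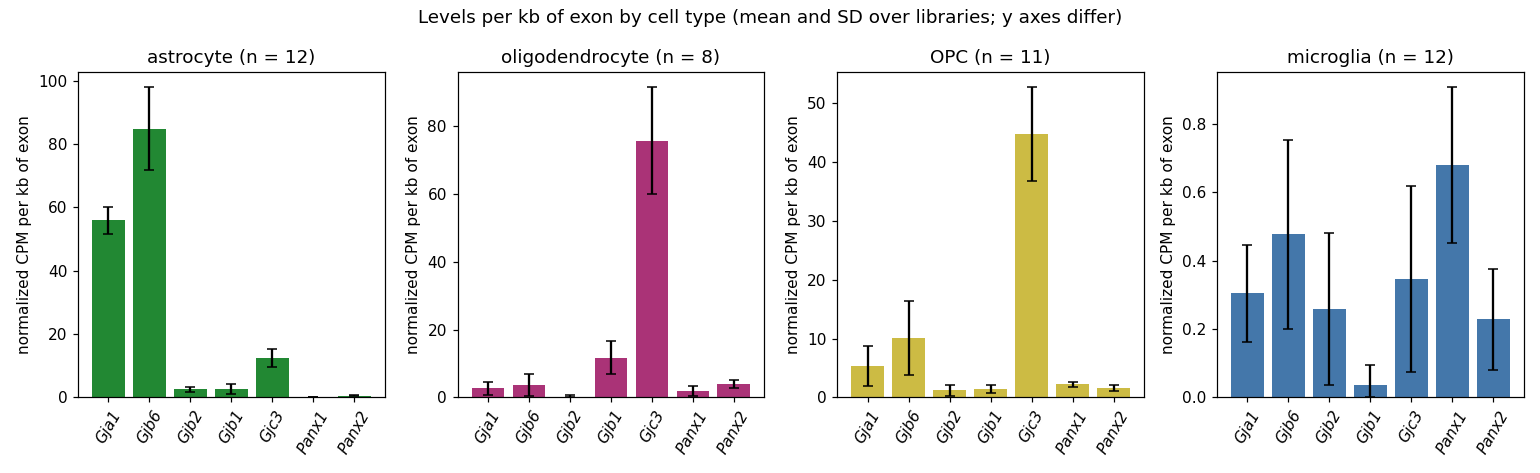
Bars are the mean normalized CPM per kb of exon of the 7 genes in each cell type, with the SD over libraries as whiskers, and each panel has its own y axis from 0. Gja1 and Gjb6 dominate in astrocytes and Gjc3 in oligodendrocytes (75.6) and OPCs (44.7), while the microglia axis ends below 1.

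Each member's level in the other cell types was set beside that of the fixed markers of the cell type where the member was highest. The percents depend on the scaling, but a change of scaling moves a member and the markers of the same libraries alike. Gja1 in OPCs was at 9.52% of its astrocyte level and Gjb6 at 12.0%, both inside the span of the 8 astrocyte markers there, 8.35% (Gfap) to 22.02% (Atp1b2). In oligodendrocytes they were at 4.71% and 4.28% (markers 3.35% to 12.4%) and in microglia at 0.545% and 0.563% (markers 0.481% to 3.67%), again inside the span. Gjb1 and Gjc3 in astrocytes, at 22.3% and 16.3% of their oligodendrocyte levels, were likewise inside the span of the 8 oligodendrocyte markers (13.2% to 33.7%), and so was Panx2 at 14.3%. Gjb2 in oligodendrocytes (7.54%, most of it from 1 library) and Gjb1 and Gjc3 in microglia (0.320% and 0.458%, markers 0.137% to 2.19%) lay inside the spans too.

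Other values lay outside those spans. Gjc3 in OPCs was at 59.1% of its oligodendrocyte level (121% without TMM factors, so that OPCs were then the higher), 6.21 times the highest oligodendrocyte marker there (Cnp, 9.51%). Panx2 in OPCs was at 40.4% (80.9% without TMM factors) and Gjb1 at 12.1% (23.7% without TMM factors). Panx2 in microglia was at 5.81%, against 2.19% for the highest oligodendrocyte marker. Gjb2 in OPCs was at 46.7% of its astrocyte level, 2.12 times the highest astrocyte marker, and in microglia at 10.1%, against 3.67% for the highest marker. Panx1 in oligodendrocytes was at 82.5% of its OPC level and in microglia at 30.7%, whereas the OPC markers reached 17.3% and 0.888% there. The oligodendrocyte percent of Panx1 was 49.7% with the control libraries alone, 63.9% by medians over libraries and 40.4% without TMM factors. Panx1 in astrocytes (5.11%) lay inside the span of the OPC markers (2.23% to 6.02%). These are descriptions over group means, and the part that cells of another type had in any of them was not tested.

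**Figure D3:**
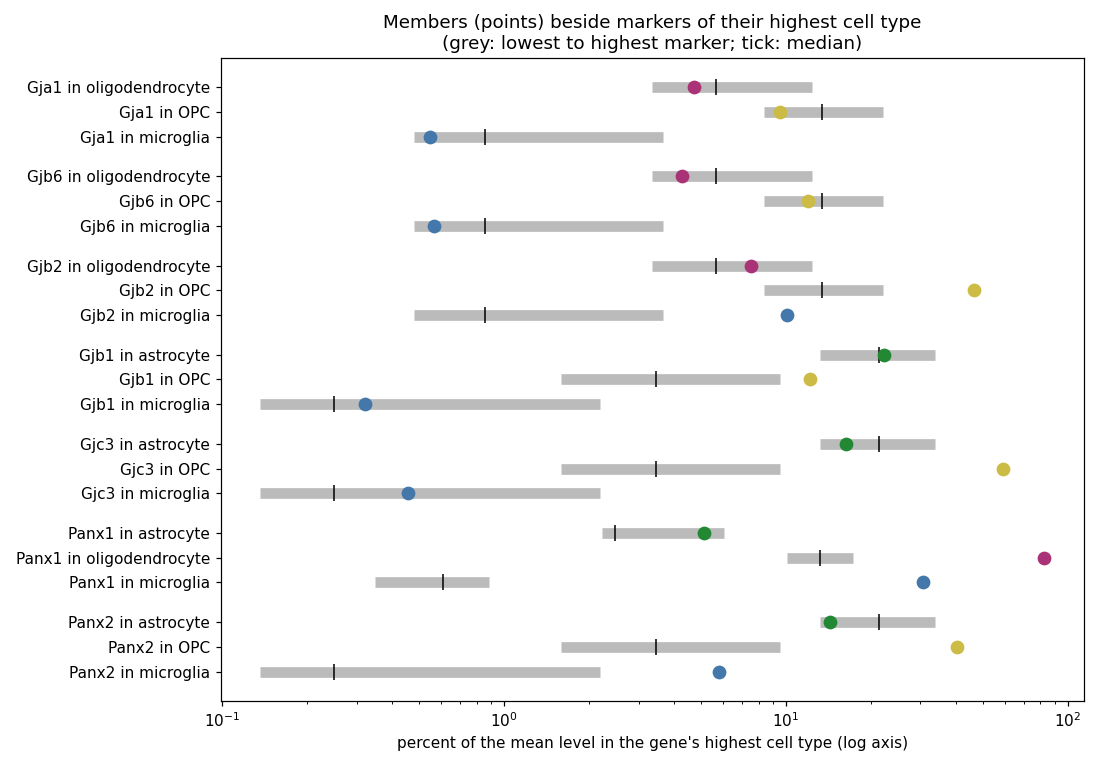
Points give the mean level of each gene in a cell type as a percent of its mean in the cell type where it was highest (log x axis), colours mark the cell type, and the grey bars run from the lowest to the highest marker of that highest type, with the median as a tick. Gja1 and Gjb6 lie inside the grey bars in every cell type, while Gjc3, Panx2, Gjb2 and Gjb1 in OPCs, Panx1 in oligodendrocytes, and Panx1, Gjb2 and Panx2 in microglia lie to the right of them.

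No member differed by genotype after adjustment in any cell type. edgeR's quasi-likelihood test with sex and genotype called 1 of 14725 genes in astrocytes (0.00679%), 0 of 13802 in oligodendrocytes (0%), 1 of 16882 in OPCs (0.00592%) and 1 of 15003 in microglia (0.00667%), none of them a member. At an unadjusted p under 0.05, where 2.87%, 3.38%, 4.02% and 2.9% of genes fell, the members numbered 0 of 6, 0 of 6, 1 of 7 and 0 of 6 that passed the low-count filter. DESeq2 called 1, 206, 5 and 3 genes in astrocytes, oligodendrocytes, OPCs and microglia, far more than edgeR in oligodendrocytes, and 0 members among them.

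Gja1 and Gjb6 in astrocytes had the narrowest intervals of these tests. Gja1 ran from 595 to 754 normalized CPM in control astrocytes (median 713) and from 626 to 761 in Rag2-/- astrocytes (median 673). The groups overlapped almost fully, with a log2 fold change of -0.07 (95% interval -0.26 to 0.12, adjusted p = 1.00). Gjb6 ran from 279 to 455 in controls (median 309) and from 286 to 399 in Rag2-/- astrocytes (median 335), with a log2 fold change of 0.04 (95% interval -0.22 to 0.30). Without the pair 5 Rag2-/- library the Gjb6 value was -0.01, and without the pair 6 control 0.13. Other members in astrocytes had wider intervals. Gjb1 differed by -0.26 (95% interval -1.31 to 0.79) and Panx2 by 0.60 (95% interval -0.18 to 1.38), the widest of those past the filter.

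In oligodendrocytes the intervals of Gja1, Gjb6, Gjc3 and Panx2 were wider than in astrocytes, and that of Gjb1 was not. Gjc3 differed by 0.26 (95% interval -0.25 to 0.78) and Gjb1 by 0.06 (95% interval -0.88 to 1.00). The Gjb1 sign turned with heterozygous controls alone (-0.16), which here left out only the pair 6 control library. Panx1 had 7.71, 3.61, 5.30 and 14.7 normalized CPM in control and 14.3, 34.4, 7.38 and 10.2 in Rag2-/- oligodendrocytes, so that it was higher in the Rag2-/- mouse in 3 of 4 littermate pairs. Its log2 fold change was 1.16 (SE 0.63, unadjusted p = 0.0925, adjusted p = 0.998). Panx2 was lower by a log2 fold change of -0.63 (95% interval -1.49 to 0.23), with Rag2-/- libraries at 15.96 to 23.5 and controls at 23.4 to 39.9. It was higher in the Rag2-/- mouse in 1 of 4 littermate pairs, by 0.0045 on the log2 scale. Gja1 and Gjb6 had -0.84 (95% interval -2.31 to 0.63) and -0.77 (95% interval -2.95 to 1.41). Both turned when 1 library was left out, Gja1 to 0.018 without the pair 6 control and Gjb6 to 0.011 without the pair 3 Rag2-/- library, and Gjc3 turned to -0.055 without the pair 5 control. Except for Gjc3, the interval of every member tested here reached past 0.88 on the log2 scale in at least 1 direction, so differences of that size were not excluded.

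In microglia every member was near the lower end of what was counted, and the 6 that passed the filter had log2 fold changes between -0.93 (Panx2, 95% interval -2.11 to 0.25) and 0.80 (Gjb6, 95% interval -0.24 to 1.84). Panx1 ran from 1.42 to 5.62 in control and from 2.36 to 6.09 in Rag2-/- microglia, a log2 fold change of 0.41 (SE 0.32, adjusted p = 0.999). Panx1 in astrocytes, Gjb2 in oligodendrocytes and Gjb1 in microglia failed the filter, and the fit without it gave -0.90 (SE 0.91), 1.43 (SE 2.73) and 0.36 (SE 1.35), none of them called.

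**Figure D4:**
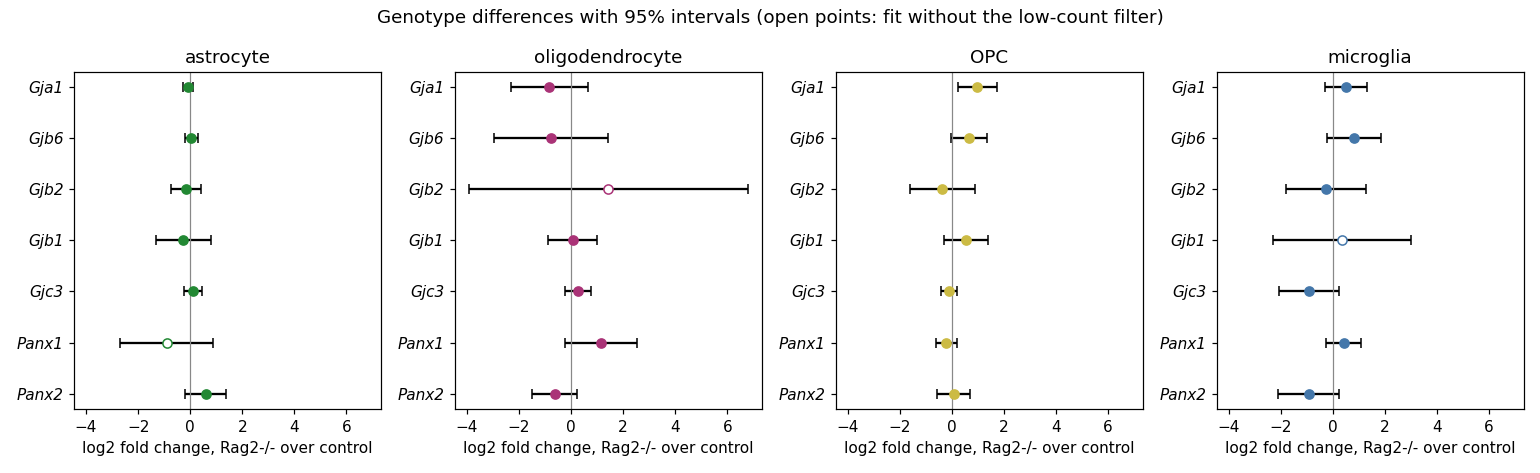
Points are log2 fold changes of Rag2-/- over control for each gene in each cell type, with 95% intervals from the edgeR fit, and open points come from the fit without the low-count filter. The interval excludes 0 only for Gja1 in OPCs (0.23 to 1.71), whose adjusted p was 1.00.

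Gja1 in OPCs was the single member with an unadjusted p under 0.05. The control libraries ran from 25.7 to 66.7 normalized CPM (median 47.3), and the Rag2-/- libraries had 162, 110, 28.5, 86.6 and 59.9. Of the Rag2-/- libraries, 3 lay above every control and 2 lay inside the range of the controls. The log2 fold change was 0.97 (SE 0.35, unadjusted p = 0.0137, adjusted p = 1.00), and the level was higher in the Rag2-/- mouse in 4 of 5 littermate pairs. Without the pair 1 Rag2-/- library it was 0.56, and with the littermate pair as a block 0.68 (adjusted p = 0.991). The fit without a filter on low counts was the exception, with an adjusted p of 3.63e-07 at the same fold change, in a fit that called 90 genes instead of 1. DESeq2 gave 0.97 with an adjusted p of 0.846. Gjb6 in OPCs had a log2 fold change of 0.64 (SE 0.33, unadjusted p = 0.0677), which was 0.08 without the pair 1 Rag2-/- library, whose level was 110 normalized CPM against 23.5 to 40.0 in the other Rag2-/- libraries.

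Astrocyte markers moved with Gja1 in these libraries. The sum of the 8 astrocyte markers ran from 2326 to 3177 normalized CPM in control OPC libraries (median 2821) and from 2587 to 5776 in Rag2-/- ones (median 4128), 1.43 times higher on average (exact permutation test, two-sided p = 0.026, adjusted p = 0.831 over the 32 combinations of marker list and cell type). The mural and endothelial marker sums were 1.60 and 1.65 times as high on average (exact permutation p = 0.0996 and 0.0801), with adjusted p = 0.96 for both. Every marker of the astrocyte, mural and endothelial lists was above 3 counts in at least 1 OPC library. The oligodendrocyte marker sum was 1.32 times as high. The microglia, fibroblast, neuron and OPC sums were 1.002, 0.992, 0.954 and 0.929 times the control mean. Across the 11 OPC libraries Gja1 followed the summed astrocyte markers with Pearson r = 0.94 and Spearman rho = 0.95 (permutation p = 2.00e-05 and 5.00e-05, adjusted over 16 relations 0.00032 and 0.0008), and r was 0.92 without the 2 libraries farthest from the median. Expressed as a percent of that sum, a measure chosen after the values were seen, Gja1 was 1.59 ± 0.430 (SD, n = 6) in control and 2.09 ± 0.693 (SD, n = 5) in Rag2-/- OPC libraries (exact permutation test, two-sided p = 0.193). Gjb6 was 1.12 ± 0.306 and 1.16 ± 0.423 percent (exact permutation p = 0.818). None of the permutation tests here used the littermate pairs. The part of other cells in the genotype difference was not tested.

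**Figure D5:**
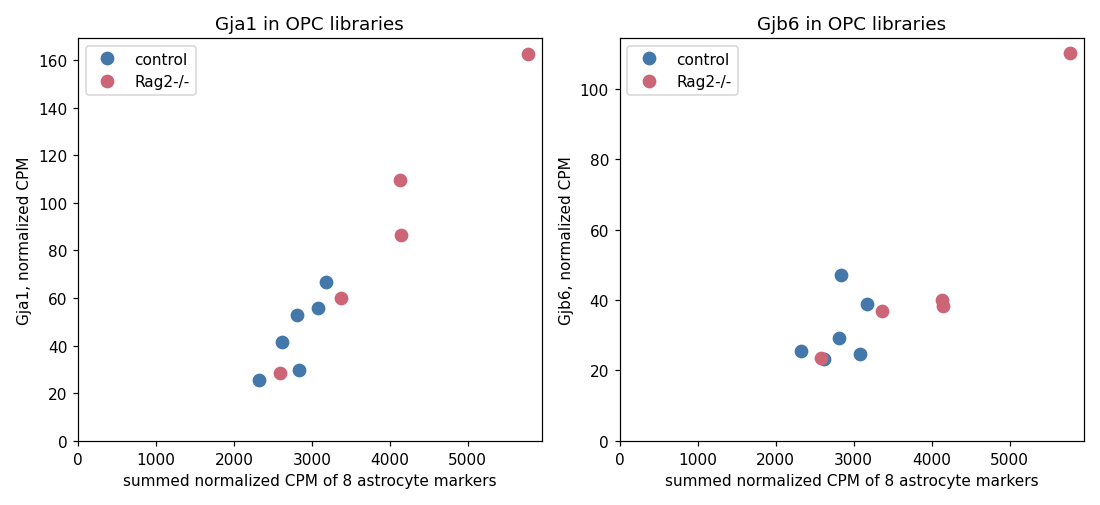
Each point is an OPC library, with the summed normalized CPM of the 8 astrocyte markers on the x axis and Gja1 (left) or Gjb6 (right) on the y axis, both from 0. The Rag2-/- library with the highest marker sum (5776) has the highest Gja1 (162) and Gjb6 (110), and the Gja1 points of both genotypes rise with the marker sum.

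The genotype effect was not shown to differ among cell types for any member. The interaction test over the 43 libraries called 53 of 21368 genes (0.248%) and 0 of the 7 members, and with the mouse as a block it called 5 genes and again 0 members. Panx1 alone had an unadjusted p under 0.05 (0.0266, adjusted p = 0.363). Without the low-count filter, Gja1 (adjusted p = 0.000524) and Gjb6 (0.0254) passed in a fit that called 909 genes, and the interaction was not run in DESeq2.

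Sex was tested in the same fits, since Gjb1 is X-linked. It called 6 genes in astrocytes (0.0407%), 5 in oligodendrocytes (0.0362%), 5 in OPCs (0.0296%) and 7 in microglia (0.0467%), and 0 members in each. At an unadjusted p under 0.05 there were 0 members in each, beside 6.73%, 8.23%, 4.3% and 3.92% of all genes, and DESeq2 called 18, 434, 13 and 11 genes, again with 0 members. Gjb1 differed between females and males by -0.28 (95% interval -1.26 to 0.69) in oligodendrocytes, 0.30 (95% interval -0.76 to 1.36) in astrocytes and 0.38 (95% interval -0.48 to 1.24) in OPCs. In edgeR's fit, the lowest unadjusted p was 0.064, for Gjc3 in astrocytes (-0.33, SE 0.17, adjusted p = 0.762).

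Within a cell type, some members varied together across libraries. In astrocytes Gja1 and Gjb2 correlated with Pearson r = 0.76 and Spearman rho = 0.78 over 12 libraries (permutation p = 0.00288 and 0.00436, adjusted over 16 relations 0.00922 and 0.0233), and r was 0.62 without the 2 libraries farthest from the median. Gja1 and Gjb6 gave r = 0.53 (permutation p = 0.0738, adjusted 0.147), which fell to 0.08 without the 2 farthest libraries. Gjc3 in astrocytes followed the summed oligodendrocyte markers, which ran from 3721 to 6483 normalized CPM there, with r = 0.79 and rho = 0.80 (permutation p = 0.00217 and 0.00265, adjusted 0.00922 and 0.0212, r = 0.61 without the 2 farthest). Gjb1 in the same libraries gave r = 0.20 (permutation p = 0.537).

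In the 8 oligodendrocyte libraries Gja1 followed the summed astrocyte markers (r = 0.91, exact permutation p = 0.00144, adjusted 0.00922, rho = 0.79 with an adjusted p of 0.0894, and r = 0.77 without the 2 farthest). Gjb6 in the same libraries gave r = 0.40 (exact permutation p = 0.328). Gjb6 in OPCs gave r = 0.84 and rho = 0.72 (permutation p = 0.00253 and 0.0164, adjusted 0.00922 and 0.0658), with r = 0.60 without the 2 farthest libraries. In OPCs, Gjc3 and the summed oligodendrocyte markers gave r = 0.17 (permutation p = 0.606). Gjb1 and Gjc3 in oligodendrocytes gave r = 0.10 (exact permutation p = 0.727), and -0.81 without the 2 farthest, so no relation can be stated. The remaining relations, of Gjb6 with Gjb2 in astrocytes, Gjb1 with oligodendrocyte markers in OPCs, and Gjb2 with fibroblast markers in astrocytes and OPCs, had r between 0.51 and 0.60 and did not pass after adjustment.

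The genes most like each member over the 8 groups of cell type and genotype were found among 14720 protein-coding genes by the root mean square difference of centred mean log2(normalized CPM + 1). For Gjb6 the closest was Sox9 (0.098), an astrocyte transcription factor, followed by Slc30a10 (0.271) and Acsbg1 (0.274). For Gja1 they were Ppp1r3c (0.230), Acsbg1 (0.239) and the water channel gene Aqp4 (0.244). For Gjc3 they were Sox10 (0.501), the transcription factor of the oligodendrocyte lineage, Lrrn1 (0.573) and Edil3 (0.587). Gjb1 had Klhl4 (0.179), Slc24a2 (0.233) and Trim59 (0.236), and Gjb2 had Rcn2 (0.181), Epb41l5 (0.187) and Ptges (0.202). Panx1 had Mycl (0.413), Rtn1 (0.434) and Abcg1 (0.439), and Panx2 had Rab15 (0.150), Syt7 (0.159) and Kcnq5 (0.189). Aqp4 is also in the astrocyte marker list.

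The other 16 connexin and pannexin genes were read as a list. In 7 of them no library exceeded 3 counts, so they were not detectable above that level at this depth. Gja4, which encodes the vascular connexin Cx37, was highest of the list per kb in OPCs (0.214 to 7.76 normalized CPM, median 0.998) and in microglia. In microglia its normalized CPM ran from 0 to 1.12 (median 0), with more than 3 counts in 4 of the 12 libraries. Only 5 of the 16 passed the 43-library filter, and in the genotype, sex and interaction tests 0 of those that passed were called.

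Related genes were read beside the members. The 11 connexin partners include the junction scaffold gene Tjp1 and the astrocyte membrane genes Hepacam and Mlc1. Between astrocytes and oligodendrocytes 6 of them were called (5 higher and 1 lower in astrocytes), beside 49.7% of all genes. Against 42.6% of all genes between astrocytes and OPCs, 8 of the 11 partners were called (5 higher, 3 lower). Hepacam, whose product was the antigen used to harvest astrocytes, was the highest of them per kb in astrocytes (106 ± 9.63 normalized CPM per kb), oligodendrocytes (43.9 ± 8.44) and OPCs (40.2 ± 5.51), and Tjp1 in microglia (25.9 ± 2.61). Among 9 genes of other ATP release channels and the ATP receptor P2rx7, P2rx7 was highest per kb in microglia (19.8 ± 2.71), Lrrc8b in oligodendrocytes (34.7 ± 8.57) and OPCs (14.3 ± 1.74), and Lrrc8c in astrocytes (9.44 ± 4.01). Of these 9 genes, 7 passed the 43-library filter. Between astrocytes and microglia 6 of them were called (2 higher and 4 lower in astrocytes), beside 70% of all genes. Between oligodendrocytes and microglia 7 were called (2 higher, 5 lower), beside 68% of all genes. By genotype, sex and interaction, 0 genes of either list were called in any cell type by edgeR. At an unadjusted p under 0.05 by genotype there were 0, 1, 1 and 2 connexin partners and 0, 1, 0 and 0 ATP release genes in astrocytes, oligodendrocytes, OPCs and microglia. Of all genes, 2.87%, 3.38%, 4.02% and 2.9% fell under that value in the same order.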

How the data were processed

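Each of the 43 libraries held RNA of 1 cell type from 1 mouse, amplified and sequenced as 2 reads of 50 bases. The deposited values were raw counts per gene, which the authors made with STAR 2.7.8a and HTSeq on GRCm39; the strand and overlap settings are not given in the sources used here. The 5 summary lines of each count file were left out. Reads on these lines, not assigned to a single gene, were 33.5% to 52.0% of all. Of 55416 identifiers, 54749 had a symbol.

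Counts were analysed with edgeR 4.0.16 (TMM, filterByExpr at 10 counts per library and 15 in total, quasi-likelihood tests, Benjamini-Hochberg over all genes, threshold 0.05, two-sided) in R 4.3.3. Sex and genotype were the terms of separate fits per cell type. A joint fit of the 43 libraries gave the 6 contrasts of cell types and the interaction. DESeq2 1.42.0, other size factors, no low-count filter, no mitochondrial genes, heterozygous or control libraries alone, a replicate block and each library left out were alternatives. A gene failing a filter took its values from the fit without it. Correlations and marker sums used permutation tests (SciPy 1.17.1), exact for fewer than 10 libraries and for marker sums, otherwise with 100000 resamples. The permutations did not use the littermate pairs. The scripts were tested on simulated counts.

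The 7 genes, the lists and the markers were chosen with earlier results of these data known. The genes named are the 7, the highest gene per kb of each list in each cell type (for the other connexins in OPCs and microglia, the rest being not reported here), and the 3 protein-coding genes nearest each member over the 8 groups. The canonical transcript length and the percent of summed astrocyte markers were added after seeing the data. Gene places and exon lengths are from the GENCODE annotation of GRCm39, promoters from RefSeq (GRCm38.p6).

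The labels give littermate pairs. Libraries of a pair deviated together from their group means, with a mean r of 0.156 in astrocytes, 0.0988 in microglia, 0.112 in OPCs and 0.12 in oligodendrocytes, against -0.0301, -0.0201, -0.0221 and -0.0398 for other pairings. No libraries of a group agreed within sampling noise. Within a cell type, p-values rest on the spread between mice. The 43 libraries came from 12 mice, and the joint fit treated libraries of the same mouse as independent. The mouse as a block was an alternative to it.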

Additional observations from a re-analysis of the deposited data

Results flagged for a closer look

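Of 56 groups of 4 to 6 libraries tested, 10 held a library far from the others by Dixon's test. For normally distributed values chance gives this in about 1 of 20 groups. Several groups here were near 0 counts, so that rate need not hold for them. Gja1 was 50.4 normalized CPM in the pair 5 Rag2-/- oligodendrocyte library, against 17.3 to 19.2 in the others. Gjb6 was 110 in the pair 1 Rag2-/- OPC library (others 23.5 to 40.0), 455 in the pair 6 control astrocyte library (others 279 to 341) and 0.149, or 2 counts, in the pair 3 control microglia library (others 1.30 to 1.95). Gjb2 was 5.17 in the pair 6 Rag2-/- oligodendrocyte library (37 counts, others 0 to 0.128) and 0.373 in the pair 1 control one (3 counts, others 0). Gjb1 was 0.627 in the pair 4 Rag2-/- microglia library (8 counts, others 0 to 0.182) and 49.3 in the pair 3 Rag2-/- oligodendrocyte library (others 31.7 to 33.8). Gjc3 was 6.62 in the pair 6 control microglia library (others 0.635 to 2.697). Panx1 was 2.36 in the pair 6 Rag2-/- microglia library (others 5.38 to 6.09).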

How the results depend on the processing

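Of 2058 alternative values of the members' cell type tests, 2019 kept direction and side of the threshold, 20 lost and 19 gained the call, and 0 reversed. Without the low-count filter, genotype called 30, 15, 90 and 9 genes in astrocytes, oligodendrocytes, OPCs and microglia (1 member, Gja1 in OPCs), sex 120, 107, 69 and 25, and the interaction 909 (2 members). DESeq2 called 206, 5 and 3 genes by genotype in oligodendrocytes, OPCs and microglia, and 18, 434, 13 and 11 by sex. With the control libraries alone, 5924 genes were called between astrocytes and OPCs and 5351 between oligodendrocytes and OPCs (3 members). With the replicate block of mouse, the interaction called 5 genes in place of 53, and the replicate block changed no other call of a member. With 1 library left out, the interaction called 29 (pair 5 Rag2-/- oligodendrocytes) to 158 (pair 1 control oligodendrocytes), sex in oligodendrocytes 3 to 5 and genotype in microglia 1 to 2.

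With heterozygous controls alone the genotype difference turned for Gjc3 in astrocytes (-0.072) and OPCs (0.048) and for Gja1 (0.018) and Gjb1 (-0.16) in oligodendrocytes. With 1 library left out it ranged for Gjb6 and Gjc3 in astrocytes from -0.0096 to 0.13 and -0.035 to 0.17, for Gja1, Gjb6, Gjb1 and Gjc3 in oligodendrocytes from -1.16 to 0.018, -1.55 to 0.011, -0.16 to 0.36 and -0.055 to 0.39, for Gjb2 and Panx2 in OPCs from -1.03 to 0.11 and -0.072 to 0.26, and for Gjb2 in microglia from -0.83 to 0.12. Gjb1 by sex in astrocytes ranged from -0.088 to 0.69. In oligodendrocytes, the fit with heterozygous controls alone is the fit without the pair 6 control library, so they are not separate checks.

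The r of Gjb1 with Gjc3 in oligodendrocytes was -0.81 without the 2 farthest libraries (-0.23 to 0.48 with 1 left out), and that of Gjb1 with oligodendrocyte markers in astrocytes -0.24 (-0.053 to 0.47). The r of Panx2 with neuron markers was -0.049 in OPCs without TMM factors and 0.034 in oligodendrocytes without the 2 farthest (-0.56 to 0.51). Gjb6 with astrocyte markers in oligodendrocytes ranged from -0.15 to 0.63 and Gjc3 with oligodendrocyte markers in OPCs from -0.030 to 0.34. The cause of these changes was not tested. For the 3 values taken from fits without the filter, no library was left out. Depth limits Panx1 in astrocytes, Gjb2 in oligodendrocytes and Gjb1 in microglia most.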
